A study of Homo sapiens with 3 samples.

Results

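Genes of the extracellular matrix were examined after knockdown of TAZ or YAP in A549, a long-established line of human lung cancer cells. The set held every gene of the array's annotation named as a collagen, laminin, matrix metalloprotease (MMP), tissue inhibitor of metalloproteases (TIMP), ADAMTS or lysyl oxidase-like gene, plus LOX, FN1, SPARC, TNC, HSPG2, NID1, FBN1, FBN2, LUM, PLOD2 and P4HA2. It came to 46 genes of the 14884 named on the array, read by 52 of the 16098 named probe sets. Lipofectamine RNAiMAX had been used to deliver a control siRNA (siNC), siTAZ, which targets TAZ, or siYAP, which targets YAP, and RNA was isolated 48 h later. Each condition had 1 whole-transcript microarray and 0 replicates, so values have no error and differences could not be tested. All 3 cultures were siRNA-transfected, and no untransfected array was analysed here.

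The extracellular matrix is the protein scaffold around cells. Collagens, fibronectin and fibrillins give it form, laminins, nidogen and perlecan build the basement membrane under epithelia, and lysyl oxidases cross-link its fibres. MMPs cut these proteins outside the cell, and TIMPs block MMPs by binding their catalytic site. YAP and TAZ are paralogous co-activators that work mainly with TEAD transcription factors, respond to the stiffness of the matrix, and are known for regulating matrix and matricellular genes.

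The measured set is narrower than its families. Of the 124 protein-coding genes that these names cover in RefSeq (assembly GRCh38.p14), 41 had a named probe set, and the other 5 members were non-coding RNA genes or pseudogenes. Only 1 of 44 collagen genes was named, COL26A1, with 0 of 12 laminins and 0 of 19 ADAMTS proteases. SPARC, PLOD2, P4HA2, MMP2, MMP3, MMP7 and MMP9 also had no named probe set in the annotation used here. The TIMPs (4 of 4), the LOX family (5 of 5), the ADAMTS-like proteins (5 of 5) and the MMPs (19 of 23) were covered best. The set is therefore one of metalloproteases, their inhibitors, lysyl oxidases and a few glycoproteins, and has no reading on laminins and nearly none on collagens.

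Each gene was read by its brightest probe set, as an RMA level on a log2 scale, and was kept when its mean over the arrays reached 4.27, the median of all probe sets. This kept 32 of the 46 members and 10768 of all genes. Levels of different genes also depend on their probes, so their order is not read as an order of transcript amounts. The siRNA targets were lower on their own arrays. WWTR1, which encodes TAZ, was 6.50 in siNC, 5.81 in siTAZ and 6.50 in siYAP, and YAP1 was 8.45, 8.24 and 6.87. WWTR1 was thus 1.61-fold lower in siTAZ and YAP1 2.99-fold lower in siYAP. The siNC and siYAP values of WWTR1 were exactly identical, a kind of tie described below. Of 6 epithelial markers, 5 had a named probe set. KRT18 (11.6 in siNC) and EPCAM (8.23) were well above the filter. KRT8 (6.50) and KRT19 (6.44) were lower in siNC, and CLDN4 (4.67) was low. Of 5 alveolar type II markers, SFTPA1 (2.81) and NAPSA (4.09 in siNC) were under the filter, and NKX2-1 (4.61), SFTPB (4.88) and SFTPC (5.04) were low in siNC.

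Many deposited values were tied between arrays. Of the 32 kept members, 17 (53.1%) had exactly the same value on all 3 arrays, and so did 41.1% of all kept genes. Such ties were more frequent at low levels. Below a level of 5.81, the 75th percentile of all probe sets, 14 of 20 members and 59.6% of 4374 kept genes were tied; at or above it, 3 of 12 members and 28.4% of 6394 genes were. A tied value was often shared with unrelated probe sets as well. Among the 31 member probe sets with 3 identical values, 29 shared that value with at least 1 other probe set of the array, and a median of 23 others did so. An identical value in this table therefore does not show that a transcript stayed the same.

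In siTAZ minus siNC, 1 of 32 members was at least 1.5-fold higher (0.762% of all kept genes were) and 0 were at least 1.5-fold lower (1.02% of all kept genes). In siYAP minus siNC the counts were again 1 higher (0.52% of all kept genes) and 0 lower (0.381%). In siYAP minus siTAZ, which does not use the control array, 0 members were 1.5-fold higher (0.566%) or lower (0.176%). With at most 1 gene past the threshold, these counts say little about the set as a whole. At a lower threshold of 0.32 on the log2 scale, siTAZ minus siNC had 1 member lower, LOXL2 (3.66% of all kept genes), and 2 higher, LUM and MMP15 (3.85%). At that threshold siYAP minus siNC had 0 members lower (2.19% of all kept genes) and 1 higher, LUM (2.41%). The median difference of the members was 0 in each comparison, as it was over all kept genes. That member median was fixed by ties, since 17, 19 and 21 of the 32 members were identical in the comparisons in turn. It therefore does not show that the set stayed the same. Both comparisons with siNC share the 1 control array.

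**Figure D1:**
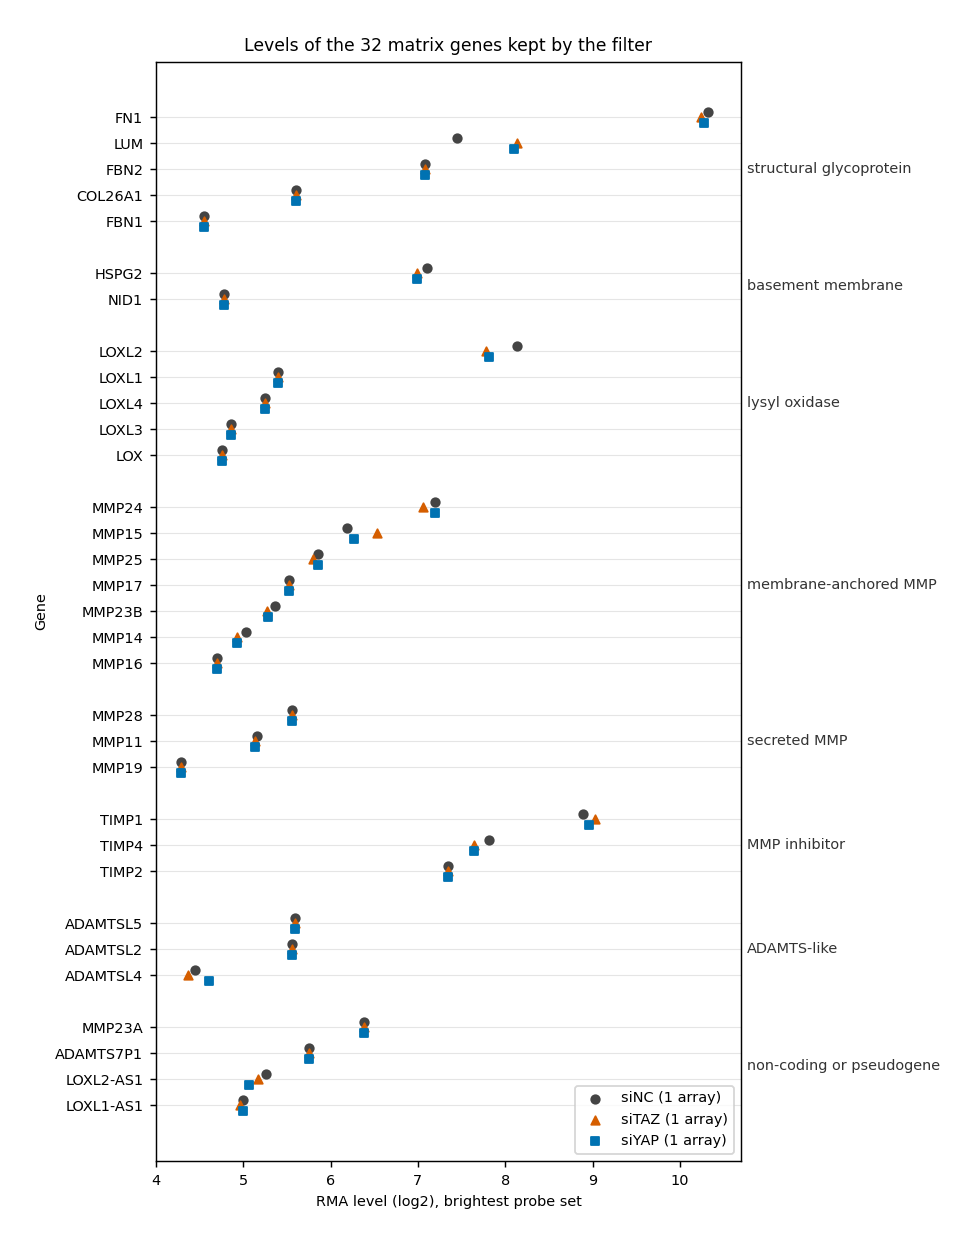
RMA levels (log2, horizontal axis) of the 32 kept matrix genes, grouped by role; each point is 1 array (circle siNC, triangle siTAZ, square siYAP), so there are no error bars. In 17 genes the 3 points share 1 level (they are offset vertically only to be visible), LUM lies at 7.45 in siNC against 8.14 and 8.10 in the knockdowns, and LOXL2 at 8.14 against 7.78 and 7.82.

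LUM was the member past the threshold in both knockdowns. It encodes lumican, a small leucine-rich proteoglycan that binds collagen fibrils and spaces them. Its level was 7.45 in siNC, 8.14 in siTAZ and 8.10 in siYAP. Both knockdown arrays lay above the control by nearly the same amount, 1.61-fold (0.69 on the log2 scale) in siTAZ and 1.58-fold (0.66) in siYAP. The siYAP array differed from siTAZ by -0.032. LUM ranked 49 from the highest of 10768 genes in siTAZ minus siNC and 34 in siYAP minus siNC. No other RefSeq gene overlaps it. With siNC averaged with the other knockdown as the reference, LUM stood at 0.36 (siTAZ) and 0.31 (siYAP), under 1.5-fold, since that reference holds a knockdown.

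LUM is also used as a fibroblast marker, so markers of other cell types were set beside it. Of the 7 other fibroblast markers, 2 had a named probe set: DCN, the gene of the related proteoglycan decorin, was under the filter with 2.38 on each array, and THY1 was 5.22 in siNC and 5.06 in both knockdowns. Their summed signal was 5.41 on the log2 scale in siNC and 5.27 in each knockdown, and rests on THY1. The 3 named leukocyte markers summed to 8.57 in siNC, 9.10 in siTAZ and 9.12 in siYAP. That sum was carried by CD68, a lysosomal protein of macrophages that other cells also express, at 8.43 in siNC and 0.57 and 0.59 above it in siTAZ and siYAP. LYZ (3.75) was under the filter and the same on each array, and CD14 was 4.49, 4.49 and 4.55. The 3 endothelial markers summed to 5.60, 5.68 and 5.65. All 3 arrays are labelled A549, a cell line, so these values are levels in that culture and not shares of cell types. The origin of the LUM difference was not tested.

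Among the other structural glycoproteins, only FN1 had values that differed between the arrays, and it lay close to the control. The rest were tied on all 3 arrays, which does not show that a transcript stayed the same. FN1, which encodes fibronectin, a main ligand of integrins, was 10.3 in siNC, 10.2 in siTAZ and 10.3 in siYAP. The control was the highest of the 3, with differences from it of -0.088 in siTAZ and -0.048 in siYAP. FBN2, a fibrillin of the elastic microfibrils, was 7.08 on every array, COL26A1 5.61 and FBN1 4.55, each identical to the last digit. TNC, which encodes the adhesion-modulating glycoprotein tenascin-C, was under the filter at 4.07 on every array. Of the basement membrane genes, HSPG2, which encodes perlecan, was 7.10 in siNC and 6.99 in both knockdowns, a difference of -0.11. NID1, which encodes nidogen-1, a linker between laminin and collagen IV, was 4.78 on every array.

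Among the lysyl oxidases, LOXL2 was the brightest and the only gene whose values differed between the arrays. It encodes an extracellular amine oxidase that cross-links collagen and elastin and is studied in tumour invasion. Its level was 8.14 in siNC, 7.78 in siTAZ and 7.82 in siYAP. Both knockdowns lay below the control, with log2 differences of -0.36 (1.28-fold lower) in siTAZ and -0.32 in siYAP. This ranked LOXL2 333 from the lowest of 10768 genes in siTAZ minus siNC and 241 in siYAP minus siNC, well short of 1.5-fold. LOXL2-AS1, a non-coding RNA gene that overlaps LOXL2, was 5.26 in siNC, 5.16 in siTAZ and 5.06 in siYAP. Both genes were lower in both knockdowns, but whether the probe sets separate the strands is not given in the sources used here, so the pair is not counted as 2 readings. LOXL1 (5.40), LOXL4 (5.25), LOXL3 (4.86) and LOX (4.75) were identical on all 3 arrays. All of these lay below 5.81, where ties were more frequent, so a contrast of LOXL2 with its relatives cannot be read from them. LOXL1-AS1, which overlaps LOXL1, was 4.99 in siNC, 4.96 in siTAZ and 4.99 in siYAP.

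RefSeq promoter sequences (250 bases before to 50 after a start site, GRCh38.p14) were matched to 32 of the 46 members. GGAATG, the core letters of the TEAD motif, was searched on both strands because TEAD factors carry YAP and TAZ to DNA. It occurred in 2 of the 32 genes (6.25%), FBN1 and LOXL3, against 16.7% of 27305 genes with a promoter in the table. The matches are shown because both genes gave identical values on the 3 arrays. FBN1 (4.55) and LOXL3 (4.86) were at low levels, where ties were more frequent. Capitals mark GGAATG in 30 bases read 5′ to 3′ on the gene's strand; the FBN1 stretch is chr15:48645011-48645040 (minus strand) and the LOXL3 stretch chr2:74554034-74554063 (minus strand).
FBN1: gggttgggcttgGGAATGgggaccgcgagg
LOXL3: ggaGGAATGgaaggagaaggcGGAATGtgg
LOXL3 has 2 matches in this stretch, which spans positions -121 to -92 from 1 of its start sites. The window at another LOXL3 start site held none. FBN1 has 1 match in positions -70 to -41. LUM and LOXL2 were not among the 32. The MMP15 window held neither GGAATG nor TGANTCA, a loose form of the AP-1 motif in which N is any base. A match describes letters only.

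The 7 membrane-anchored MMPs, which act at the cell surface, all passed the filter. MMP15, a transmembrane enzyme that can activate proMMP2, was 6.18 in siNC, 6.54 in siTAZ and 6.27 in siYAP. Here siTAZ stood above the other arrays, 0.35 (1.28-fold) above siNC, with siYAP minus siTAZ at -0.27, while siYAP was only 0.084 above siNC. MMP15 ranked 344 from the highest of 10768 genes in siTAZ minus siNC and 221 from the lowest in siYAP minus siTAZ, and no other RefSeq gene overlaps it. MMP14, the best known activator of proMMP2, was 5.03 in siNC and 4.93 in both knockdowns.

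MMP24, a transmembrane enzyme known mainly from the nervous system, had a pair of probe sets that differed. The brighter gave 7.19 in siNC, 7.05 in siTAZ and 7.19 in siYAP, and the other 6.68, 6.66 and 6.81. Both put siTAZ lowest, with differences from siNC of -0.14 and -0.025, but they differed over siYAP, which was 0.0028 above siNC on the first and 0.12 above on the other. The 0.0028 changed sign when the table was quantile-normalized again. MMP25, a GPI-anchored enzyme of leukocytes, was 5.86 in siNC, 5.80 in siTAZ and 5.86 in siYAP on its brightest probe set, while its other probe sets read 5.60 and 4.55 on every array. MMP23B was 5.36, 5.27 and 5.28; it has a near-identical pseudogene copy, MMP23A (6.38 on every array), whose signal its probes may share. MMP17 (5.53) and MMP16 (4.70) were identical on the 3 arrays.

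**Figure D2:**
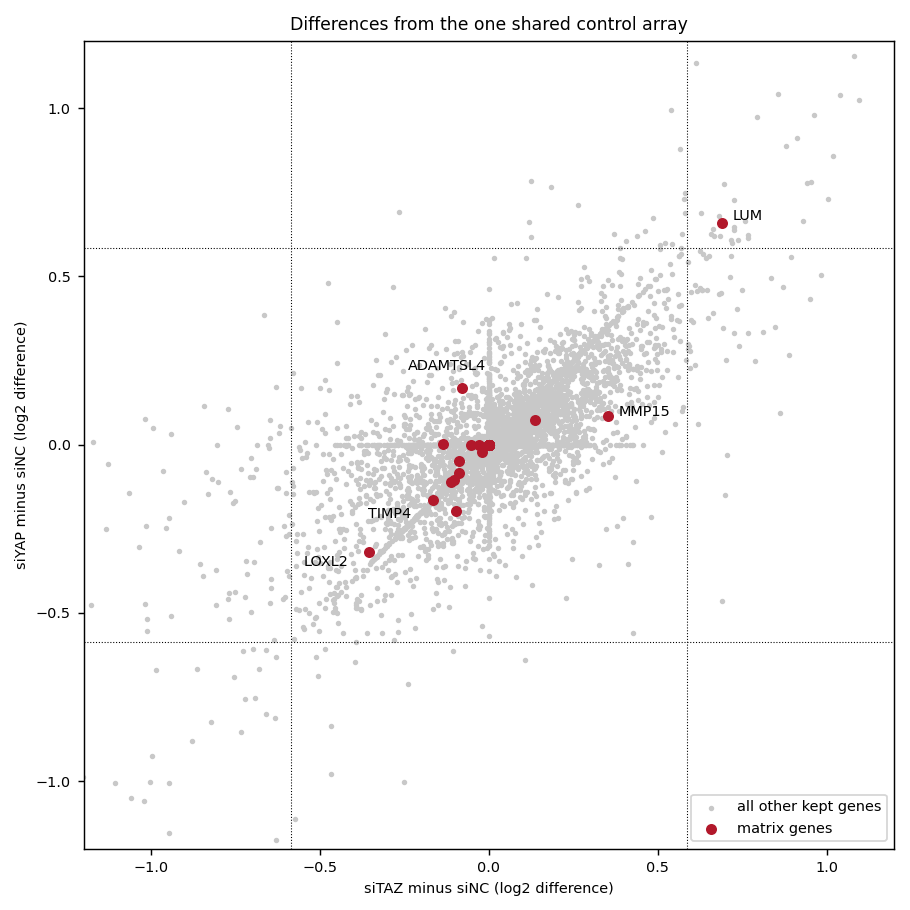
Log2 difference from siNC after siTAZ (horizontal) and siYAP (vertical) for the 32 matrix genes (red) and the other kept genes (grey), with dotted lines at 1.5-fold; both axes subtract the same control array, and 16 kept genes lie outside the plotted range. LUM is the red point past both dotted lines, LOXL2 the lowest on both axes and MMP15 the red point that is high in siTAZ alone.

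Most secreted MMPs gave low signals. Of 12, only MMP28 (5.56), MMP11 and MMP19 (4.28) were kept. MMP11, or stromelysin-3, was 5.16 in siNC and 5.14 in both knockdowns, and MMP28 and MMP19 were identical on all 3 arrays. MMP1, MMP8, MMP10, MMP12, MMP13, MMP20 and MMP27, among them the interstitial collagenases, lie in 1 cluster on chromosome 11 with MMP3 and MMP7. All 7 were under the filter, with levels from 2.44 to 3.29. In 4 of the 7 the value was the same on every array; MMP12 differed from siNC by -0.12 in both knockdowns, MMP13 by 0.021 in both and MMP20 by 0.050 in siTAZ. MMP21 (3.98) and MMP26 (3.29) were also under the filter and identical.

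AP-1 factors are known activators of MMP promoters and share many enhancers with TEAD. TGANTCA, searched on both strands (it reads the same on each), occurred in 2 of the 32 member genes with a promoter (6.25%), against 9.37% of all 27305. Both lie in the chromosome 11 cluster and were under the filter, so they are shown only as the TGANTCA matches among the 32 genes searched. Both have A in place of N, and whether AP-1 binds them was not tested. The MMP10 stretch is chr11:102780677-102780706 and the MMP20 stretch chr11:102625426-102625455, both on the minus strand, with TGANTCA in capitals.
MMP10: aaacacatgcaTGAATCAtactgttggtga
MMP20: tgtttgagacaTGAATCAtccttgctcgga
MMP10 was 2.44 on every array, and MMP20 was 3.18 in siNC, 3.22 in siTAZ and 3.18 in siYAP. At such low signals neither value says whether the gene responded.

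The 4 inhibitors had no shared direction. TIMP1, a broad MMP inhibitor with growth factor activity, was 8.89 in siNC, 9.03 in siTAZ and 8.96 in siYAP. Both knockdowns lay above the control, by 0.14 and 0.072. TIMP4 was 7.81 in siNC and 7.65 in both knockdowns, a difference of -0.17. TIMP2, which also takes part in activating proMMP2 at MMP14, was 7.35 on every array. TIMP3, the inhibitor that binds to the matrix, was under the filter, at 4.06 in siNC and 4.08 in both knockdowns, and its dimmer probe set read 3.18 on every array. TIMP1, TIMP3 and TIMP4 lie within the synapsin genes SYN1, SYN3 and SYN2, so signal from a host transcript cannot be told apart where strand is not known.

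The ADAMTS-like proteins resemble ADAMTS enzymes but lack the protease domain, and several bind fibrillin. ADAMTSL4 was 4.45 in siNC, 4.37 in siTAZ and 4.61 in siYAP. Its difference from the control was -0.080 in siTAZ and 0.17 in siYAP, and the knockdowns were 0.25 apart, at a level just over the filter. ADAMTSL5 (5.60) and ADAMTSL2 (5.56) were identical on the 3 arrays. ADAMTSL3 was under the filter, at 4.19 in siNC and siYAP and 4.09 in siTAZ, as was ADAMTSL1 at 3.60 on every array. The pseudogene ADAMTS7P1 (5.75) and the antisense RNA gene ADAMTS9-AS2 (3.79, under the filter) were identical on each array.

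Among members with any difference, lower values were in the majority after siTAZ. In siTAZ minus siNC, 12 of 32 members were lower by any amount (37.5%; 21.7% of all kept genes), 17 identical (48.5% of all kept genes) and 3 higher, namely LUM, MMP15 and TIMP1 (9.38%; 29.7% of all kept genes). In siYAP minus siNC, 8 were lower (21.7% of all kept genes), 19 identical (51.3%) and 5 higher (27%). In siYAP minus siTAZ, 4 were lower (26.2% of all kept genes), 21 identical (53.9%) and 7 higher (19.9%). Of the 12 lower in siTAZ, 11 lay within 0.17 of the control, and LOXL2 was the exception. A renewed quantile normalization, which breaks the ties, gave 15 lower and 16 higher members in each comparison with siNC, with the formerly identical members no more than 0.026 from the control. In siYAP minus siTAZ it gave 20 lower and 10 higher, which turns the majority. The split is thus set by small differences and by ties.

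**Figure D3:**
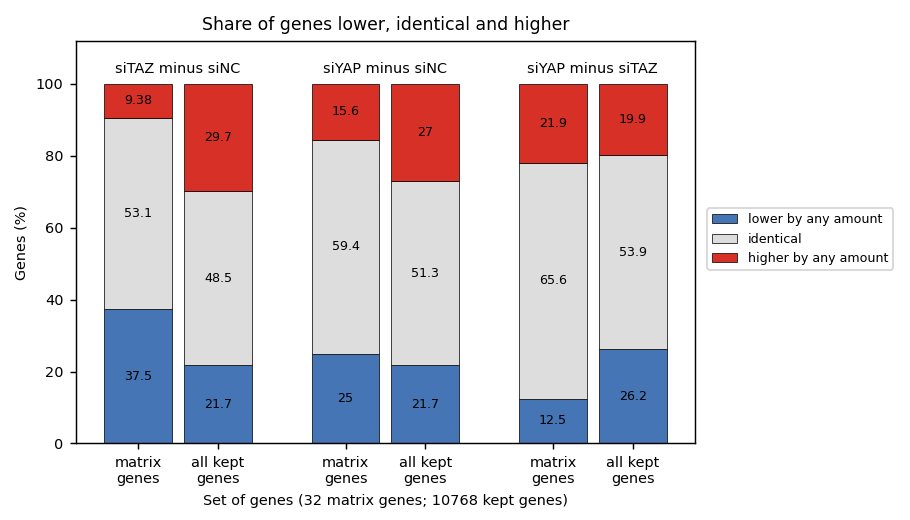
Percent of genes lower, identical and higher (stacked bars that start at 0) in each comparison, for the 32 matrix genes and all 10768 kept genes; each comparison is 1 array against 1 array. In siTAZ minus siNC, 37.5% of the matrix genes were lower against 21.7% of all kept genes.

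Ties of siTAZ with siYAP alone were about as frequent among the kept members as among all kept genes. The other partial ties were less frequent among the members, though they concern few genes. HSPG2, MMP11, MMP14 and TIMP4 (12.5% of the kept members; 12.8% of all kept genes) had exactly the same value in siTAZ and siYAP and another in siNC, as did MMP12, MMP13 and TIMP3 under the filter. In LOXL1-AS1 and MMP25 (6.25%; 10.2% of all kept genes), and in ADAMTSL3 and MMP20 under the filter, siNC and siYAP were identical and siTAZ differed. Only siNC and siTAZ were identical in 0 members and 7.46% of all kept genes. All 3 values differed in 9 kept members (28.1%; 28.5% of all kept genes): LUM, LOXL2, LOXL2-AS1, MMP15, MMP23B, MMP24, ADAMTSL4, FN1 and TIMP1. Where the knockdown values are tied, the differences from the control are 1 number and not a pair of measurements.

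In other matrix genes, taken from lists of the same kinds of function, larger differences were seen among the matricellular glycoproteins. Of 32 kept genes of that list, 2 were at least 1.5-fold lower in each comparison with siNC (1.02% of all kept genes in siTAZ and 0.381% in siYAP) and 0 higher. CCN2, a matricellular protein and much used YAP/TAZ target, was 7.90 in siNC, 6.35 in siTAZ and 6.81 in siYAP. THBS1, which encodes thrombospondin-1, was 7.20, 6.50 and 6.59, or 1.62-fold and 1.52-fold lower than in siNC. None of 6 basement membrane partners, 14 proteoglycan and hyaluronan genes or 13 genes of collagen folding and processing reached 1.5-fold in any of the 3 comparisons. Over all kept genes the share past 1.5-fold was at most 1.02% in either direction. A count of 0 in lists this short therefore says little. The largest, with siTAZ given before siYAP, were SMOC1 (0.33 and 0.12), NID2, the second nidogen (0.25 and 0.31), and NTN4 (-0.22 in both). Among the proteoglycan and hyaluronan genes they were SDC4 (-0.44 and -0.25), SDC1 (0.27 and 0.010), HAS3 (-0.26 and -0.33) and VCAN (-0.030 and -0.25). In collagen processing they were COLGALT1, a collagen galactosyltransferase (0.29 and 0.17), P3H1 (0.24 and -0.032) and P3H2 (-0.22 and -0.18). Median differences of the 4 lists were 0 in both comparisons, except 0.0011 for the basement membrane partners in siYAP minus siNC. Ties weigh on these medians too. In the matricellular list, 19 of 32 genes were identical in siTAZ minus siNC and 23 in siYAP minus siNC.

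**Figure D4:**
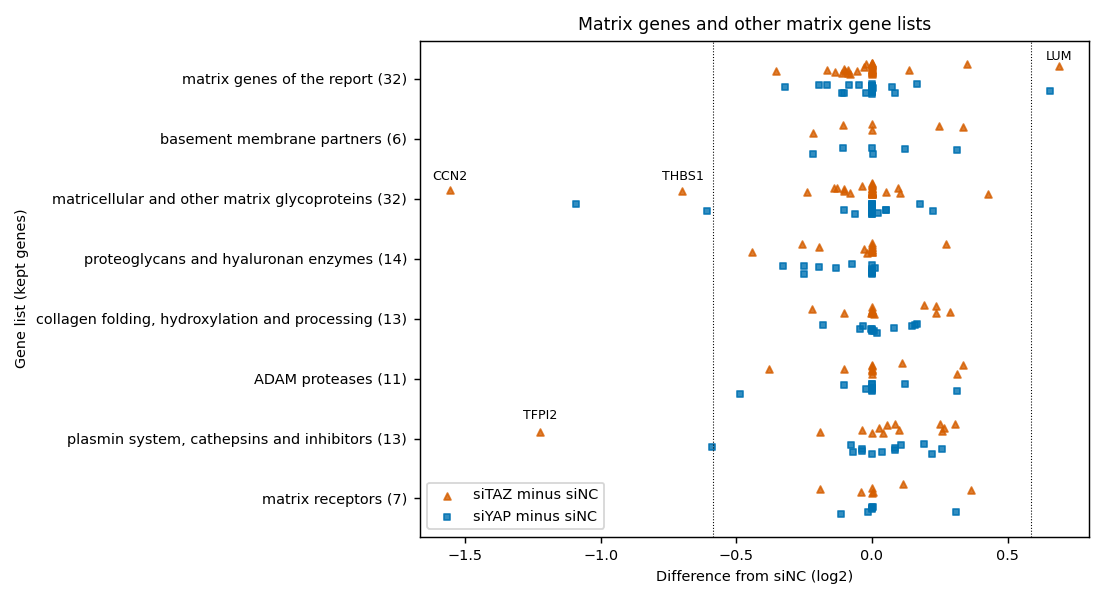
Log2 difference from siNC (horizontal axis) of each kept gene in the matrix set and in 7 other lists of matrix genes; triangles are siTAZ minus siNC, squares siYAP minus siNC, and dotted lines mark 1.5-fold. Points are spread vertically only to separate them; CCN2, THBS1 and TFPI2 lie left of the dotted lines and LUM is the only gene to the right.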

How the data were processed

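RNA of A549 cells was measured on 3 Affymetrix whole-transcript arrays, 1 per siRNA, from 500 ng of total RNA. The authors summarised the arrays with RMA, per the submitters' processing notes; its version is not given in the sources used here, nor are annotation and build. The deposited values, from 0.961 to 13.5, were taken to be log2, as RMA gives. Probe sets were named from the platform annotation (37519 of 53617 unnamed). All 16098 Entrez identifiers matched RefSeq, and 0 symbols were updated. Differences between arrays were taken on the log2 scale and folds are their antilogarithms. Calculations used Python 3.11.15, pandas 2.3.3 and numpy 2.4.6, and were tested on simulated data. With 1 array per group no p-value or interval was possible, and the number of arrays limits precision.

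Members, lists and thresholds were chosen with earlier results of these data known. Genes were named when past 1.5-fold, among the 10 most extreme or brightest members, with several probe sets, or as preset checks; from each other list, up to 4 genes past 1.5-fold or the 2 largest differences. All members are described. A list of A549 marker genes driven by NRF2 had 0 of 5 named. Alternatives were other filters, scalings, probe set rules, references and fold thresholds.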

Additional observations from a re-analysis of the deposited data

How the results depend on the processing

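Of 526 differences of single members recomputed under the alternatives, 521 moved by less than 0.1 on the log2 scale. The called ones were those of LUM, and 0 of them changed sign. Many of the 526 could not move, so the 521 do not measure stability. Leaving genes in or out keeps each difference: 96 with no filter, 36 with the 75th percentile filter and 45 without tied genes. Subtracting a median of 0 left another 96 as they were. The 5 that moved belonged to LUM, LOXL2 and MMP15, all with siNC averaged with the other knockdown as the reference; MMP15 in siYAP went from 0.084 to -0.092. With that reference, 0 members were 1.5-fold higher in siTAZ and 0 in siYAP. At 2-fold the counts were likewise 0 and 0. At the lower threshold of 0.32 on the log2 scale, 1 member (LOXL2) was lower and 2 (LUM and MMP15) were higher in siTAZ, and 0 were lower and 1 (LUM) higher in siYAP. The counts at 1.5-fold were the same with no filter, with a filter at the 75th percentile (12 members), with differences shifted to a median of 0, with a renewed quantile normalization, with the mean of all probe sets, and without genes identical on all 3 arrays, an alternative chosen after seeing the data. In the last, 15 members had medians of -0.088 (siTAZ) and -0.022 (siYAP), against 0.0030 and 0 over the 6345 kept genes without such ties. Dim probe sets and tied values limit what the other members can show. No paired analysis was possible because each group has 1 array.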

Other observations

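Further lists of matrix proteases and receptors were measured on the same arrays. Among 13 kept genes of the plasmin system, cathepsins and their inhibitors, TFPI2, a serine protease inhibitor deposited in the matrix, was the only one past 1.5-fold from siNC. Its log2 level was 9.62 in siTAZ and 10.3 in siYAP. The differences from siNC were -1.22 (2.33-fold lower) and -0.59, the latter just past 1.5-fold. TFPI2 was 1.55-fold higher in siYAP than in siTAZ. Of all kept genes, 1.02% were at least 1.5-fold lower in siTAZ minus siNC and 0.381% in siYAP minus siNC. In siYAP minus siTAZ, 0.566% were at least 1.5-fold higher. In siTAZ 9 genes of this list were higher by any amount and 3 lower (29.7% and 21.7% of all kept genes were), with CTSC at 0.30, CTSS at 0.27 and CTSA at 0.26, names chosen after their values were seen. In siYAP 7 were higher and 5 lower (27% and 21.7% of all kept genes).

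Of 11 kept ADAM proteases, which shed proteins from the cell surface, 0 were past 1.5-fold. Over all kept genes, 1.02% were lower and 0.762% higher at that threshold in siTAZ, and 0.381% and 0.52% in siYAP. A count of 0 in a list this short therefore says little. ADAM9 was 10.9 in siNC, 10.5 in siTAZ and 10.4 in siYAP, lower in both knockdowns. ADAM22, which lacks protease activity, was 0.34 higher in siTAZ, and ADAM15 was 0.31 higher in both. Of 7 kept matrix receptors and related genes, 0 were past 1.5-fold, and beside those shares this count also says little. LAMP1, a related gene of the list rather than a matrix receptor, was 8.20, 8.56 and 8.51. The laminin receptor gene BCAM was 7.05, 6.86 and 6.93. No integrin subunit had a named probe set in the annotation used here.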
